A study of Mus musculus with 7 samples.

Results

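Layer 6 excitatory neurons of the mouse primary visual cortex (V1) were described among single nuclei from mice that had received the PESCA library. The nuclei were selected by a rule on their own UMIs (unique molecular identifiers, each counted as 1 captured transcript), so the genes in the rule are a description of the choice and no result. Of 47348 barcodes, 32335 passed a minimum depth (above 200 UMIs, viral ones not counted) and are the kept nuclei. A kept nucleus met the rule when it had no UMI of Gad1 or Gad2, at least 3 UMIs over Foxp2, Syt6, Rprm, Nxph3 and Tle4, at least 2 of them from Foxp2, Syt6 and Rprm, and no UMI of the layer 4 genes Rspo1, Endou and Scnn1a. 607 nuclei met it, 1.88% of the kept nuclei. They carried 971311 non-viral UMIs, with a median of 1367 per nucleus against 712 over all kept nuclei.

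All nuclei belong to 1 deposited sample, from visual cortex of adult male C57BL/6J mice aged 6 to 10 weeks. The mice had V1 injected with AAV9 particles that packed a pool of 287 candidate gene regulatory elements (GREs), each placed before a minimal promoter that drives GFP and each tied to 3 barcodes. There was no uninjected control, so every level below is a level in injected cortex. Nuclei were captured on the inDrops droplet platform in 10 libraries, here called by the names of their tables, 1-1 to 1-5 (library set 1) and 2-1 to 2-5 (set 2). The study's methods give 5 libraries to each of 2 animals, but the labels do not name the animal of a table. With 1 sample there is no replicate of a condition: no test was made, the spread over libraries is given as a description, and the intervals are exact 95% intervals for the counting of UMIs (Poisson) or nuclei (binomial), or conditional binomial for folds, and cover counting error only.

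Layer 6 is the deepest layer of the cortex and a main source of the feedback from cortex to thalamus. Its corticothalamic neurons are glutamatergic, and use the transcription factors Tbr1 and Foxp2, while other excitatory neurons of the layer project within the cortex or, in the thin layer 6b at its base, carry their own markers such as Cplx3, Nxph4 and Ctgf. Rprm encodes a cell cycle arrest protein, Syt6 a synaptotagmin, Nxph3 a neurexophilin that binds neurexins, and Tle4 a Groucho family corepressor.

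The rule used Rprm and Foxp2 most. Rprm had a UMI in 478 of the 607 nuclei (1091 UMIs), Foxp2 in 366 (703), Tle4 in 232, Syt6 in 148 and Nxph3 in 120. No nucleus held more than 9 UMIs of any of these genes. The summed count had a median of 4 and reached 13. It was exactly 3 in 303 nuclei, so about as many stood at the threshold as above it, and 386 more met the rest of the rule with a sum of 2. Just inside, at a sum of 3, the level of Tbr1, which the rule does not use, was 3.98 UMIs per 10000 non-viral UMIs, the scale of all gene levels here. It was 4.62 at a sum of 4 or more, 3.35 just outside, at a sum of 2, and 1.74 in nuclei with none of the 5 genes and no Gad1 or Gad2. For Cux2, a factor of upper layer neurons, the same levels were 0.152, 0.0636, 0.179 and 0.984. On both genes the nuclei just outside sat nearer to those inside than to nuclei with none of the 5 genes. These bands leave out the fibroblast nuclei described next.

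Against the label, 28 of the 607 nuclei had the transcripts of fibroblasts, the collagen-making cells of the meninges and vessel walls. They were found by at least 5 UMIs over 13 fibroblast genes, a list and limit chosen after the values were seen. Of the other 579 nuclei, 506 had none of these UMIs, 54 had 1 and 19 had 2 to 4, while 24 of the 28 had 17 or more and the highest had 278. Mgp, a matrix protein, reached 70.3 UMIs per 10000 in them against 0.519 in the others, and collagen gene Col1a2 50.4 against 0.0577. Both are among the 13 genes, so these values are set in part by the choice. Of genes not on that list, Foxc1 was at 8.21 against 0.0692 and Gja1 at 28.05 against 0.450. The vesicular glutamate transporter Slc17a7 went the other way, with 0.859 against 5.63. 19 of the 28 had no UMI of 6 excitatory neuron genes, Slc17a7 and Neurod2 among them. Foxp2 had a UMI in 24 of the 28, Rprm in 6 and Nxph3 in none, so they entered the rule mostly through Foxp2. Their median depth was 2850.5 UMIs, and they held 10.8% of the UMIs of all rule nuclei. They came from 8 of the 10 libraries, with none in 2-1 or 2-2. Another 689 kept nuclei outside the rule had 5 or more fibroblast UMIs, with Foxp2 at 1.42 against 0.448 over all nuclei outside the rule.

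**Figure D1:**
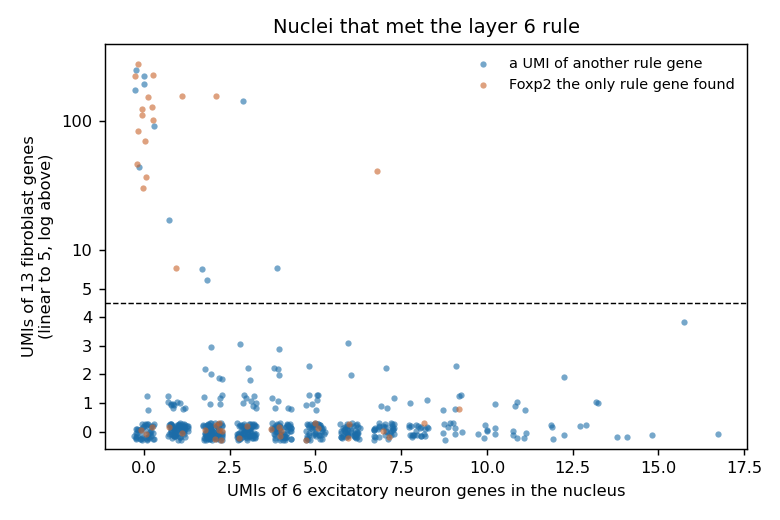
Each point is 1 of the 607 nuclei that met the layer 6 rule, by its UMIs of 6 excitatory neuron genes (x axis) and of 13 fibroblast genes (y axis, linear up to 5 and logarithmic above), with a small random offset and colour by whether Foxp2 was the only rule gene found. Of the 28 nuclei above the dashed line 19 have no excitatory UMI, and the 579 below it spread along the x axis.

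The remaining 579 nuclei, called layer 6 nuclei from here, carried the genes of excitatory neurons as a group, though 47 of them had no UMI of the 6 excitatory genes. Over the 9 genes of the excitatory list their summed level was 34.3 (from 30.0 to 38.4 over libraries), against 50.5 in other excitatory nuclei, which were chosen for UMIs of 6 of these genes. The 12 genes of the inhibitory list, of which Gad1 and Gad2 are fixed at 0 by the rule, summed to 1.13 against 1.35. Of 7 tested, Vip, a neuropeptide gene, was at least 2-fold higher, from 16 UMIs, and Pvalb and Slc32a1 were at most 0.5-fold. Over all genes of this comparison, which is set out below, 1.77% were higher and 7.98% lower. Oligodendrocyte, OPC, microglia and vascular genes were at 3.61, 0.600, 0.993 and 3.59, near the 3.96, 0.564, 1.03 and 3.63 of other excitatory nuclei. The astrocyte list was higher, at 21.6 (15.1 to 30.0 over libraries) against 14.0 (12.2 to 15.1). Most of it was the glutamate transporter Slc1a2, at 19.0 against 12.2, and the other 7 astrocyte genes together had 2.54 against 1.81. Of 7 tested astrocyte genes, Slc1a2 among them, Aqp4 and Gja1 were at least 2-fold higher and 0 at most 0.5-fold. These counts stand beside 1.77% higher and 7.98% lower over all genes. Gja1 was at 2.02-fold and higher in 6 of 10 libraries. 120 layer 6 nuclei (20.7%) had 5 or more astrocyte UMIs, against 9.22% of the comparison nuclei. Doublets were not removed, and the part of 2-cell droplets in these values was not tested.

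The share of nuclei that met the rule differed between the library sets. In the 5 libraries of set 1 it was 1.24% at the lowest, 1.41% at the median and 1.47% at the highest, and in set 2 2.09%, 2.61% and 2.73%. Every library of set 2 stood above every library of set 1. Pooled, 243 of 17656 nuclei met it in set 1 (1.38%, interval 1.21 to 1.56) and 364 of 14679 in set 2 (2.48%, 2.23 to 2.74). Other excitatory nuclei were also a larger share in set 2, 26.3% against 21.6%, again with no overlap of libraries. Of layer 6 and other excitatory nuclei together, layer 6 nuclei made 8.41% in set 2 and 5.57% in set 1. Other excitatory nuclei needed 3 excitatory UMIs and layer 6 nuclei did not, so this share rests on unlike gates. Depth moved with the sets, with a median of 646.5 UMIs per kept nucleus in set 1 and 802 in set 2, and a rule of 3 UMIs is met more easily by a deeper nucleus. So each nucleus of at least 1000 UMIs was thinned to 1000, which left out 21421 shallower ones, and the rule was applied again. It was then met by 81 of 5155 nuclei of set 1 (1.57%, 1.25 to 1.95; 3.16% of the same nuclei unthinned) and 150 of 5759 of set 2 (2.60%, 2.21 to 3.05; 5.23% unthinned). Its library values still did not overlap, from 1.27% to 1.81% and from 2.33% to 2.82%. At 500 UMIs only 52 and 60 nuclei met it, the shares were 0.489% (0.365 to 0.640) and 0.606% (0.463 to 0.780), and the libraries overlapped. Without the fibroblast nuclei the unthinned shares were 1.27% and 2.41%. Whether the sets differ by animal, dissection or capture cannot be told apart.

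**Figure D2:**
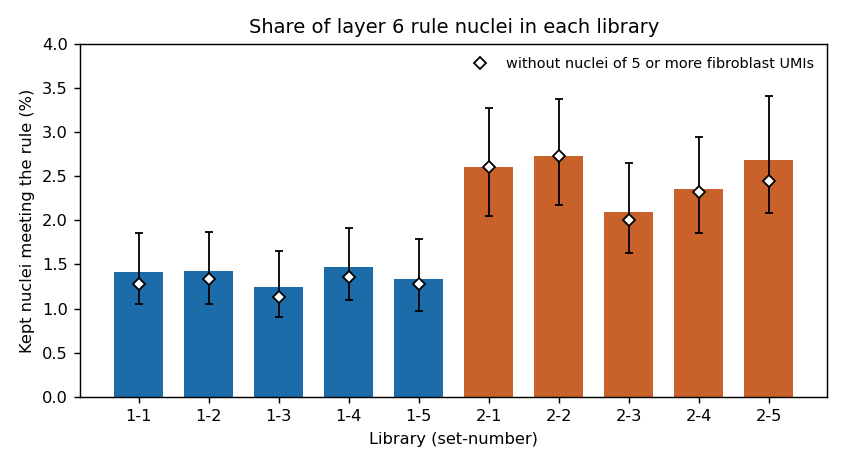
Percent of kept nuclei that met the layer 6 rule in each of the 10 libraries (blue, set 1; orange, set 2), with exact 95% binomial intervals and, as diamonds, the share without fibroblast nuclei. Bars of set 1 lie between 1.24% and 1.47% and those of set 2 between 2.09% and 2.73%.

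Gene levels were first compared as planned, for all 607 rule nuclei, over 10357 genes with at least 300 UMIs among kept nuclei. Against all 31728 other kept nuclei, 235 genes (2.27%) were at least 2-fold higher and 844 (8.15%) at most 0.5-fold. Without the fibroblast nuclei described above the counts were 135 and 1257. Against 3209 other excitatory nuclei (no Gad1 or Gad2, at least 3 excitatory UMIs and at most 1 UMI over glial, vascular and immune genes), 731 (7.06%) were higher and 758 (7.32%) lower. The cap on glial and vascular genes applied to the comparison nuclei alone. With the same cap on the rule nuclei, 680 were higher and 2204 lower. That cap drops rule nuclei, so these counts rest on fewer UMIs. Of the 607, 478 had a UMI of the astrocyte gene Slc1a2 and 142 had 5 or more astrocyte UMIs. The highest folds among genes higher in all 10 libraries were those of Gja1, a gap junction protein (116-fold), Mgp (90.6) and Islr (66.5), then Thbs1, Anxa2, Cd9, F3 and Plpp3. The fibroblast nuclei held 294 of the 333 Gja1 UMIs of the rule nuclei. Penk, which encodes the enkephalin precursor, stood at 6.08-fold there, with 350 UMIs in all rule nuclei, of which 9 were in the 579 layer 6 nuclei. Of the 20 highest, Mgp, Islr, Trbc2 and Ighm had a fold above 4 in the comparison that follows too. Among the lowest in all 10 libraries were Rtn4rl1 (0.0701), Pou3f1 (0.0716) and Lingo2 (0.0746).

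An even comparison, chosen after these values were seen, set the 579 layer 6 nuclei against 7672 other excitatory nuclei with no Gad1 or Gad2, at least 3 excitatory UMIs and fewer than 5 fibroblast UMIs, with no cap on glial genes on either side (median depth 1336 and 1160 UMIs). 183 genes (1.77%) were at least 2-fold higher in layer 6 nuclei and 826 (7.98%) at most 0.5-fold. For 96 genes (0.927%) every library of layer 6 nuclei lay above every library of the others, and for 208 (2.01%) below. The comparison nuclei were chosen on excitatory genes and the layer 6 nuclei were not, so values for those 6 genes are set in part by the choice. The comparison nuclei could also hold rule gene UMIs, as nuclei just outside the rule do. Against comparison nuclei that held none, 231 genes were higher and 887 lower.

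Most tested genes known from corticothalamic neurons were higher in layer 6 nuclei. Of the 12 on that list, 9 passed the filter of 300 UMIs, and 6 of them were at least 2-fold higher and 0 at most 0.5-fold, beside 1.77% higher and 7.98% lower over all genes, with a median fold of 2.08 beside 0.950 over all genes. Tbr1, the T-box factor that specifies these cells, had 2.72, 4.03 and 5.99 UMIs per 10000 in the lowest, median and highest library of layer 6 nuclei, and 1.61, 2.02 and 2.52 in the other excitatory nuclei. The libraries did not overlap, and the pooled fold was 2.08 (1.85 to 2.32). Crym, a thyroid hormone binding protein, had 0.823, 1.49 and 3.11 against 0.265, 0.334 and 0.433, 4.83-fold (3.94 to 5.90), again without overlap. For Fezf2, a zinc finger factor of deep layer neurons, the values were 1.05, 1.55 and 1.89 against 0.599, 0.728 and 0.948, a fold of 2.04 (1.68 to 2.46). Garnl3 was 2.15-fold higher at 8.60, Sulf1, a heparan sulfatase, 2.37-fold and Sla 2.69-fold, the last from 34 UMIs. Zfpm2, a cofactor of GATA factors, was under the filter, with 35 UMIs and a fold of 4.51 (2.96 to 6.76). Ntsr1, the neurotensin receptor gene whose Cre line marks these cells, was thinly captured with 26 UMIs, 0.300 against 0.182, and its libraries overlapped.

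Transcription factors differed in both directions. Of 40 tested, 6 were at least 2-fold higher (Bcl11b, Fezf2, Lmo3, Nfia, Tbr1 and Zfhx3) and 13 at most 0.5-fold, beside 1.77% higher and 7.98% lower over all genes. Bcl11b, also called Ctip2, had 1.51, 2.67 and 4.66 in layer 6 libraries against 0.764, 0.875 and 0.979, a fold of 3.08 (2.65 to 3.57). Lmo3, a LIM-only protein, was at 1.81 against 0.639 with no overlap, and Nfia, a nuclear factor I protein, at 1.83 against 0.529, higher in 10 of 10 libraries. Nfib of the same family was at 6.19 against 3.10, just under the 2-fold line as the unrounded ratio. On the low side, Cux2 had 9 UMIs in all layer 6 nuclei and a fold of 0.110 (0.0499 to 0.209), the layer 4 factor Rorb 12 UMIs and 0.120 (0.0620 to 0.211), and the POU factor Pou3f1 2 UMIs.

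Many genes of the other layers were low, beside 7.98% of all genes. In the upper layer list, Calb1, Cux1, Cux2 and Rasgrf2 of 5 tested genes were at most 0.5-fold, and the libraries of all 4 lay below those of the other nuclei, beside 2.01% of all genes. The calcium binding protein Calb1 had 0, 0.132 and 0.463 against 1.13, 1.37 and 1.51. Both tested layer 4 genes, Rorb and Whrn, were at most 0.5-fold, as were 3 of 6 layer 5 genes (Bcl6, Fam84b and Pou3f1), while Etv1 and Deptor of layer 5 had folds of 0.717 and 0.813. Levels were also set against 3 gates on those lists, taken from nuclei outside the rule with no Gad1 or Gad2 by the list with most UMIs, ties left out, at least 3 UMIs of the upper layer list (2281 nuclei), layer 4 (219) or layer 5 (650). Fibroblast nuclei were not removed from the gates, and Mgp was at 2.15 in the layer 5 gate against 0.519 in layer 6 nuclei. Tbr1 stood at 4.33 in layer 6 nuclei and at 1.71, 1.99 and 1.20 in these gates. Crym stood at 1.65 against 0.116, 0.142 and 0.716. Bcl11b was nearly as high in the layer 5 gate, 2.33 against 2.68, and Fezf2 was higher there, 2.46 against 1.52. Layer 6 nuclei and the layer 5 gate thus shared high Bcl11b and Fezf2 and stood apart in Tbr1 and Crym.

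Genes of layer 6b were few in UMIs or near the other nuclei in level. Cplx3, a complexin, had 3 UMIs in all 579 nuclei, Nxph4, a neurexophilin, 3, and Moxd1 none. Ctgf, a secreted matrix protein, had 45 UMIs, at 0.519 against 0.578, and Nr4a2, an orphan nuclear receptor, 0.669 against 0.571. Of 4 tested genes of this list none was 2-fold higher, and Tmem163 was at most 0.5-fold, beside 1.77% higher and 7.98% lower over all genes. Of the 2 tested layer 6 genes of neurons that project within the cortex, Penk was at 0.104 against 0.431 from 9 UMIs, and Gnb4, a G protein subunit, at 0.868-fold. Osr1 and Car3 had no UMI in layer 6 nuclei, and whether they were absent or too thinly captured was not tested.

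The levels of Tbr1, Crym and Bcl11b, which the rule did not use, were close whether Foxp2, Rprm or both were found. 239 layer 6 nuclei had both Foxp2 and Rprm, 103 Foxp2 without Rprm, 233 Rprm without Foxp2 and 4 neither. Tbr1 was at 3.84 (3.24 to 4.51), 4.48 (3.47 to 5.68) and 4.79 (4.07 to 5.60) in the first 3 kinds, and Crym at 1.75, 1.47 and 1.62. Their intervals overlapped for both genes. Bcl11b was likewise at 2.74, 3.01 and 2.50. The layer 5 gene Etv1 did vary, with 0.183 (0.0735 to 0.377, 7 UMIs) in nuclei with both genes and 1.22 (0.872 to 1.66, 40 UMIs) in those with Rprm without Foxp2. Deptor, also a layer 5 gene, followed it at 0.470 and 1.19, and was highest, at 2.12 (1.36 to 3.16), in the 79 nuclei where Rprm was the only rule gene found. Ctgf was at 0.172 (0.0469 to 0.441, 4 UMIs) in the 146 nuclei with Syt6 and 0.647 (0.464 to 0.877, 41 UMIs) in the 433 without. Etv1, Deptor and Ctgf were picked from more genes and more overlapping splits of the same nuclei.

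Outside the layer marker lists, the highest folds in all 10 libraries were of genes with varied roles. Ighm, the constant region of the immunoglobulin mu chain, had 1.03, 1.74 and 2.68 UMIs per 10000 in the layer 6 libraries and 0.162, 0.324 and 0.444 in the others, 5.48-fold (4.48 to 6.68) without overlap. Trbc2, a constant region of the T cell receptor beta chain, had 0.191, 0.942 and 2.06 against 0.124, 0.237 and 0.272, 4.23-fold (3.23 to 5.50), higher in 10 of 10 libraries though their ranges overlapped. The rest of the lymphocyte list did not go with it: of 5 tested, Trbc2 alone was 2-fold higher and Ptprc alone at most 0.5-fold, beside 1.77% higher and 7.98% lower over all genes. Ptprc had 4 UMIs and Nkg7 and Gzmb none. No layer 6 nucleus had 5 or more lymphocyte UMIs. Ighm and Trbc2 were about as high in nuclei with Foxp2 and Rprm (1.72 and 1.12) as in all layer 6 nuclei (1.74 and 0.923). Other high folds were those of Mgp, 0.519 against 0.0977 from 45 UMIs, which is on the fibroblast list and so bounded by the choice of nuclei, Ddah1, which breaks down asymmetric dimethylarginine, 4.99-fold, Gadd45a, a stress response protein, 4.52-fold, and Pitpnc1, a phosphatidylinositol transfer protein, 4.08-fold. Igfbp4, an insulin-like growth factor binding protein, had 3.33, 4.03 and 5.76 against 1.18, 1.26 and 1.39. Pcp4, a calmodulin regulator, had 5.72, 8.92 and 11.5 against 2.21, 2.55 and 3.38, with 4.28 in the layer 5 gate. The most abundant was 3110035E14Rik, at 18.6 against 6.28.

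**Figure D3:**
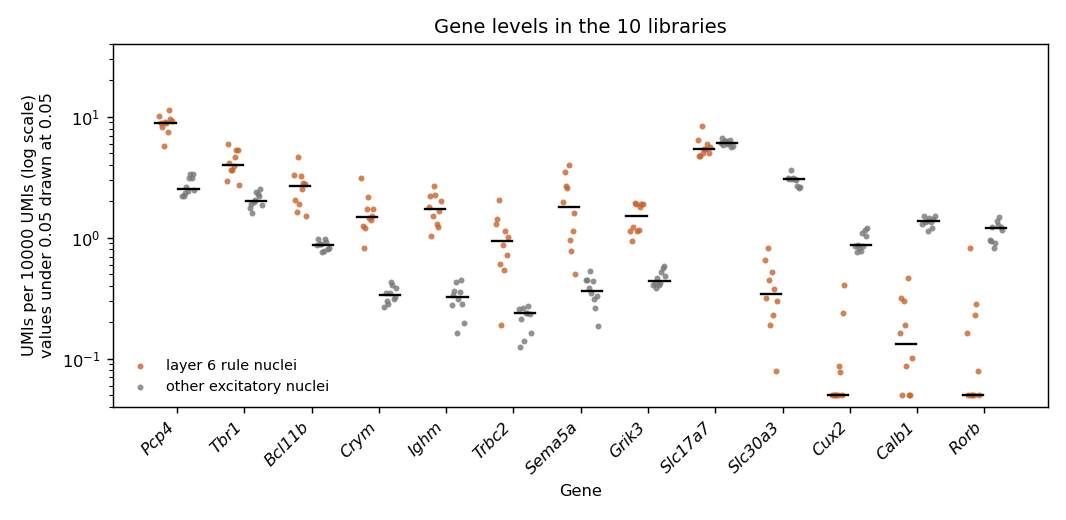
UMIs per 10000 non-viral UMIs (log scale) of 13 genes in each of the 10 libraries, for layer 6 nuclei (orange) and other excitatory nuclei (grey), with bars at the medians. Tbr1, Crym, Bcl11b, Pcp4, Ighm and Grik3 do not overlap and are higher in layer 6 nuclei, Cux2, Calb1 and Slc30a3 do not overlap and are lower, and Slc17a7 overlaps.

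Among the lowest genes with more than 3 UMIs in layer 6 nuclei was Rtn4rl1, a Nogo receptor relative, with 0, 0.123 and 0.403 against 1.73, 1.94 and 2.03 and a fold of 0.0729 (0.0376 to 0.128). Lingo2 was at 0.0994-fold and Fam60a, a Sin3 complex subunit, at 0.101-fold. Slc30a3, the transporter that loads zinc into synaptic vesicles, had 0.0799, 0.346 and 0.823 against 2.59, 3.05 and 3.62, a fold of 0.120 (0.0813 to 0.170). Its level was 3.09 in the upper layer gate, 5.13 in layer 4 and 1.14 in layer 5. The cerebellin Cbln4 was at 0.124-fold, Boc, a hedgehog co-receptor, at 0.108-fold, and Pparg, a lipid-sensing nuclear receptor, had no UMI in layer 6 nuclei and 0.225 per 10000 in the others.

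Thinned to 500 UMIs, 32.2% of 556 layer 6 nuclei had a Pcp4 UMI (28.3 to 36.3; 62.5% unthinned), against 10.7% of 7059 other excitatory nuclei (20.6% unthinned). In 314 oligodendrocyte gate nuclei, which should lack it, the share was 1.59% (3.69% unthinned). This gate took nuclei with oligodendrocyte UMIs and no excitatory UMI, so Slc17a7 was at 0% there by the choice. Nuclei with stray excitatory transcripts were thus left out. The gate's shares of neuronal genes are set in part by the choice and may understate the background. The median depths before thinning were 1336, 1160 and 297 UMIs, and 23, 613 and 878 shallower nuclei were left out. For Tbr1 the 3 thinned shares were 18.2%, 9.52% and 1.59%, and for Ighm 7.01%, 1.69% and 0.318%. Nfia, which glia use, was at 7.19% in layer 6 nuclei and 7.96% in oligodendrocyte gate nuclei. Cux2 was at 0.360% (0.0436 to 1.29) in layer 6 nuclei and 1.59% (0.519 to 3.68) in oligodendrocyte gate nuclei, with overlapping intervals, and unthinned at 1.38% and 1.34%.

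Genes of synapses and wiring differed in both directions, and their counts stand beside 1.77% higher and 7.98% lower over all genes. Of 39 tested axon guidance genes, 6 were at least 2-fold higher and 9 at most 0.5-fold. The semaphorin Sema5a had 0.504, 1.78 and 4.02 in the layer 6 libraries against 0.185, 0.365 and 0.536, a fold of 4.48 (3.67 to 5.46). It was 6.72 in set 1 and 3.25 in set 2, and every set 1 library of layer 6 nuclei lay above every set 2 library. Sema3e, a secreted semaphorin, was at 1.97 against 0.832 with no overlap of libraries, while the gene of its receptor, Plxnd1, was at 0.127 against 0.717, also with none. The neuropilins parted, with Nrp1 at 2.72-fold from 117 UMIs and Nrp2 at 2 UMIs. The netrin receptors Unc5c and Unc5d were low, at 0.264-fold and 0.155-fold. Of 36 synaptic adhesion genes, Cntnap4, Igsf21, Lrrtm2 and Tenm1 were at least 2-fold higher and 10 at most 0.5-fold. Among the leucine-rich Lrrtm proteins, Lrrtm2 was at 3.14 against 1.38 and Lrrtm1 at 0.231 against 0.760; of the teneurins, Tenm1 was at 2.26-fold and Tenm4 at 0.448-fold. No cadherin of 20 was 2-fold higher and 9 were at most 0.5-fold, with Cdh8 at 0.235-fold and Pcdh20 at 0.230-fold.

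Of the receptor and channel lists, most had 1 gene past 2-fold. The counts stand beside 1.77% higher and 7.98% lower over all genes, and 1 of 40 or 1 of 14 is near those shares. Grik3, a kainate receptor subunit, had 0.946, 1.51 and 1.96 against 0.383, 0.443 and 0.586, a fold of 3.25 (2.66 to 3.95), and was the only 1 of 20 glutamate receptor genes past 2-fold, while Grik1, Gria4 and Grm7 were at most 0.5-fold. The nicotinic subunit Chrna4 was at 1.19 against 0.475, 2.50-fold (2.00 to 3.10) and higher in 9 of 10 libraries, and the muscarinic receptor Chrm2 was low with 4 UMIs. The potassium channel Kcnk2 was at 2.64 against 1.20 and the only 1 of 40 past 2-fold, beside 6 at most 0.5-fold. These included Kcnc2 at 0.205-fold, Kcnb2 at 0.283-fold and Kcnq5 at 0.339-fold, each with no overlap of libraries. The T-type calcium channel Cacna1g was at 0.129-fold and the calcium channel subunit Cacna2d3 at 0.113-fold. GABA receptor genes stood near 1, with a median of 1.03 over 14 and only Gabra2 at most 0.5-fold (0.390). Of 12 monoamine receptor genes 1 was higher and 2 lower, and of 14 peptide and cannabinoid receptor genes 1 and 3. The adrenergic Adra2a was at 2.16-fold, the histamine receptor Hrh3 at 0.363-fold and the serotonin receptor Htr7 at 0.257-fold from 3 UMIs. The neurotensin receptor Ntsr2 was at 2.59-fold from 9 UMIs, the PACAP receptor Adcyap1r1 at 0.378-fold, the cannabinoid receptor Cnr1 at 0.431-fold and the corticotropin-releasing hormone receptor Crhr1 at 0.170-fold.

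Of the interferon and antigen presentation genes, about as many were low as were not. Of 22 tested, none was 2-fold higher and 11 were at most 0.5-fold, beside 1.77% higher and 7.98% lower over all genes, with a median fold of 0.539 beside 0.950. They are thinly captured, with 4 UMIs of Oasl2, 2 of Ifit2 and none of Cd74 or Irf7 in layer 6 nuclei. In the planned comparison, where the comparison nuclei had at most 1 glial, vascular or immune UMI, and the 28 fibroblast nuclei were among the rule nuclei, the median was 1.19. There 8 of the 22 were at least 2-fold higher and 1 at most 0.5-fold, beside 7.06% higher and 7.32% lower over all genes. The direction thus differed between the comparisons, which differ in both choices. Immediate early genes had a median of 0.921 over 17, and Jun alone was at most 0.5-fold, at 0.415 against 0.941. No gene of 11 on the AAV entry list passed 2-fold in either direction.

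**Figure D4:**
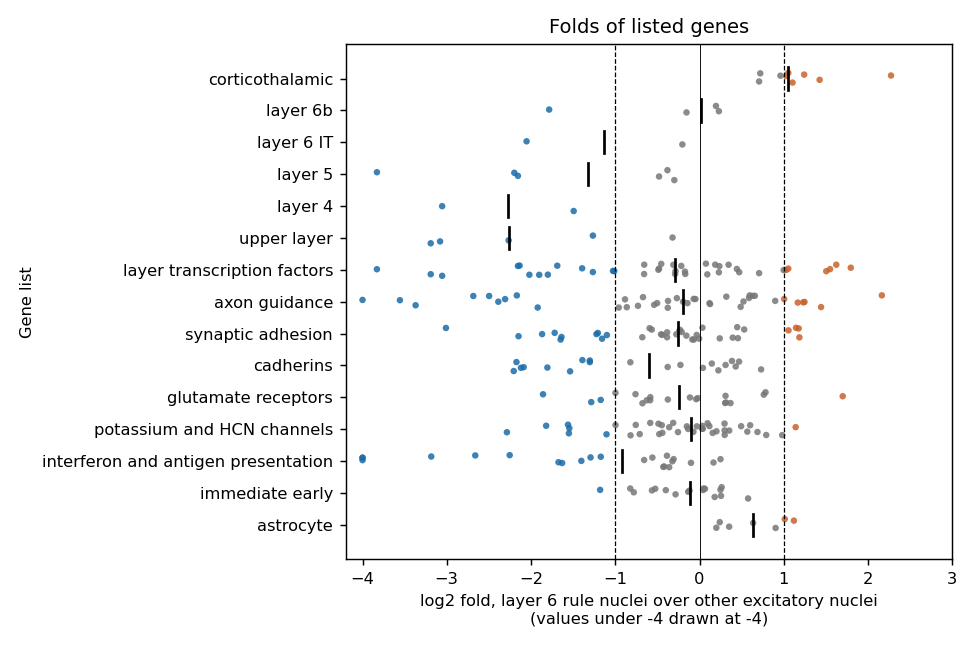
Each point is a tested gene of the list on the y axis, by its log2 fold in layer 6 nuclei over other excitatory nuclei (x axis), with a black bar at the list's median and dashed lines at 2-fold. The corticothalamic list lies to the right, the upper layer and layer 4 lists lie to the left, the layer 5 list has no point above 0, the astrocyte list none below it, and the axon guidance, synaptic adhesion and transcription factor lists spread to both sides.

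Viral transcripts were present in most layer 6 nuclei. 89.6% of the 579 had a viral UMI (86.9 to 92.0), against 89.2% of the 7672 other excitatory nuclei. Among the 15013 barcodes of 200 or fewer UMIs it was 79.4%, so barcodes with little cellular RNA also held viral UMIs. For all 607 rule nuclei the mean was 16.9 viral UMIs per nucleus (16.6 to 17.2) with a median of 6. The mean was 0.868 times that of the planned excitatory nuclei and 1.07 times that of all other nuclei. Once the comparison nuclei were weighted to the same depths, the ratios were 0.565 and 0.594. Per 1000 non-viral UMIs, layer 6 nuclei had 11.5 viral UMIs, other excitatory nuclei 16.3 and the upper layer, layer 4 and layer 5 gates 20.1, 8.39 and 15.8.

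Viral UMIs per nucleus, set against other excitatory nuclei, differed between the sets. In set 1 the mean was 14.9 UMIs per layer 6 nucleus against 23.2 per other excitatory nucleus, a ratio of 0.640, and in set 2 18.7 against 18.0, a ratio of 1.04. By library the ratio ran from 0.343 to 0.979 in set 1, below 1 in all 5, and from 0.748 to 1.37 in set 2, below 1 in 2 of 5. The ranges overlapped, and the difference between the sets was not tested. Medians were 6 against 9 in set 1 and 8 against 5 in set 2. Layer 6 nuclei were deeper in set 2. Per 1000 non-viral UMIs they had 11.5 viral UMIs in both sets, against 19.5 in other excitatory nuclei of set 1 and 13.4 in set 2. The fibroblast nuclei had 9.68 viral UMIs on average.

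GREs were compared by their mean UMIs per rule nucleus against the planned 3209 excitatory nuclei, with 0.01 added to both means. Of 186 GREs with at least 300 UMIs over all kept nuclei, 20 (10.8%) were at least 1.5-fold higher and 64 (34.4%) at most 0.667-fold, with a median fold of 0.859. As shares of viral UMIs, 26 were higher and 38 lower. The balance turned between the library sets, with 13 higher and 102 lower in set 1 and 45 and 23 in set 2. The mean of all viral UMIs per rule nucleus was 0.626 times that of these excitatory nuclei in set 1 and 1.18 times in set 2. The counts by set were not repeated as shares of viral UMIs. The GRE folds rest on few UMIs, a median of 34 per GRE over all rule nuclei, and often on 1 nucleus. Without the rule nucleus with most UMIs of the GRE, 4 of the 20 stayed at 1.5-fold or more. The comparison nuclei kept their own highest nucleus, so a fold could not rise by this step. Only 22 of the 186 were above 1 in both library sets and 73 below 1 in both.

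The sequences of 4 GREs are given: GRE57 and GRE159, which stayed above 1.5-fold without their highest nucleus, the lowest GRE, GRE99, and the lowest of the study's hits, GRE12. All are 300 bases of the mouse reference genome, build mm10, plus strand, and none overlaps a gene in GENCODE vM21. GRE57 lies at chr1:48524048-48524347, GRE159 at chr14:92829121-92829420, GRE99 at chr12:58551175-58551474 and GRE12 at chr15:52005640-52005939. Of protein coding genes, the closest start was that of Slc39a10 at 1631.3 kb from GRE57, Pcdh9 at 1061.4 kb from GRE159, Clec14a at 282.0 kb from GRE99 and Rad21 at 14.0 kb from GRE12.
GRE57: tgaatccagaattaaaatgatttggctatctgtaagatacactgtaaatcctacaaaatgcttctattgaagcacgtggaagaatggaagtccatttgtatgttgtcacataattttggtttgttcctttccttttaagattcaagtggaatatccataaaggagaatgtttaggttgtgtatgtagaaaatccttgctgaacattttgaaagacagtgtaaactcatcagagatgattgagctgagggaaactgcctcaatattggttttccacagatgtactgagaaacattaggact
GRE159: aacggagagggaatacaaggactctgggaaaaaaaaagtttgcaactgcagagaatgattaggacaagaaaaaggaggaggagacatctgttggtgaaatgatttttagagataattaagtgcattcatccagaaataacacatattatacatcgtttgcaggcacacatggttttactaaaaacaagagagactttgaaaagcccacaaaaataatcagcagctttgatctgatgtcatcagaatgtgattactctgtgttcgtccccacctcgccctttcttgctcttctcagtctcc
GRE99: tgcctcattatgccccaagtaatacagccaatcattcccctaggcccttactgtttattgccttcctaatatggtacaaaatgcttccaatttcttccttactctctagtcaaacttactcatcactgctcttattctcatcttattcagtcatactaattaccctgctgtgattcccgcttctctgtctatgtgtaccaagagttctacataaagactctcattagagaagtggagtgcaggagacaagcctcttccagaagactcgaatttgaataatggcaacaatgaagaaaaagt
GRE12: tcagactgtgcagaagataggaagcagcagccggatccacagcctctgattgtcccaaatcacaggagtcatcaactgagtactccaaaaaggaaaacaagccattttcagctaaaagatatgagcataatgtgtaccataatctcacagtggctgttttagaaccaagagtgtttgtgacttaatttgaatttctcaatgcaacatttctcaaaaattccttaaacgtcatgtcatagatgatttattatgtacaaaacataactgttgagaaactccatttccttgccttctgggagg
These 4 were searched on both strands for TGTTTAC (a forkhead core), GGTGTGA (a T-box core) and CAGCTG (an E-box), and none was found, so no base is in capitals. Of the 130 GREs of 300 bases, 6.92%, 4.62% and 34.6% hold them.

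GRE57 had 126 UMIs in 40 of the 607 rule nuclei, 20.8 per 100 nuclei (17.3 to 24.7) against 10.3 in the excitatory nuclei. Its fold was 1.93, 2.28 in set 1 and 1.73 in set 2, and 1.61 without its highest nucleus, which held 22 UMIs. In the even comparison it was 1.47. GRE159 had a fold of 3.07 from 44 UMIs in 9 nuclei, and 2.03 without the highest. GRE134 (3.00, or 1.78 without its highest nucleus), GRE266 (2.49) and GRE256 (1.90) were also above 1 in both sets, but 1 nucleus gave 38 of 87, 43 of 83 and 48 of 97 UMIs. GRE266 and GRE256 were at 1.29 and 1.02 without it.

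The lowest GREs had few UMIs, spread thinly. GRE99, well captured with 3065 UMIs over all kept nuclei, had 13 UMIs in the rule nuclei, 2.14 per 100 (1.14 to 3.66) against 12.6, a fold of 0.232 that was 0.242 and 0.240 in the 2 sets. GRE236 had 9 UMIs (fold 0.316), GRE276 9 (0.328), GRE42 1 UMI and GRE102 none. GRE12, GRE19, GRE22, GRE44 and GRE80 are the study's hits for SST interneurons, found in the screen of these nuclei. In rule nuclei GRE12 had 12 UMIs in 7 nuclei and a fold of 0.438, below 1 in both sets (0.237 and 0.525). GRE80, GRE44 and GRE22 stood at 1.09, 0.978 and 0.897, with 144, 131 and 71 UMIs. The direction turned between sets 1 and 2 for GRE44 (0.540 and 1.42) and GRE22 (1.22 and 0.693). Without the highest rule nucleus, and with all comparison nuclei kept, GRE80, GRE44 and GRE22 were at 0.942, 0.765 and 0.782. GRE19 stood at 1.39, or 0.834 without its highest nucleus.

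**Figure D5:**
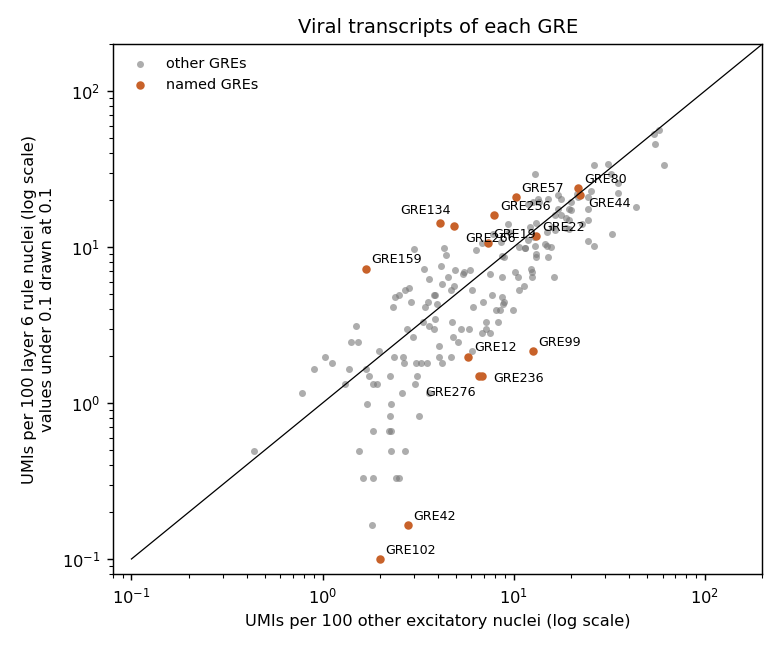
Viral UMIs of each of the 186 GREs per 100 rule nuclei (y axis) and per 100 other excitatory nuclei (x axis), both on log scales, with the line of equal levels and the named GREs in orange. GRE57, GRE159 and GRE134 lie above the line, and GRE99, GRE236, GRE276 and GRE12 lie below it.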

How the data were processed

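Nuclei of V1 were profiled by snRNA-Seq (inDrops) in 10 libraries of 1 sample. The authors' pipeline assigned reads to cells against GRCm38 with a contig added for each viral barcode, and the deposited counts are UMIs per barcode and gene, without normalization. Viral transcripts had been enriched by PCR. The deposited GRE table gives positions and barcodes. Its 2 specificity columns hold the authors' own ATAC and PESCA enrichment and were not used, nor were the ATAC files.

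Kept nuclei had more than 200 UMIs over 25871 gene columns, as in the study. 861 of 1164 viral columns belong to GREs. Levels are pooled UMIs per 10000, and a fold is the ratio of levels without pseudocount. No test was possible with 1 sample. The members and the gene lists were chosen with earlier results of these data known. Genes named are the rule genes, listed genes, and the 20 highest and 12 lowest planned folds of the same direction in all 10 libraries. For GREs they are the study's 5 hits and the 5 highest and 5 lowest of like direction in both sets. The even comparison and its leading genes were chosen after values were seen. 5476 of 25866 barcode names occur in more than 1 library, and 206 rule nuclei bear such a name. Folds were checked on simulated counts. Doublets were not removed. GRE sequences came from RefSeq's GRCm38.p6. Tools were python 3.11.15, numpy 2.4.6, scipy 1.17.1 and pandas 2.3.3. Alternatives left out each library, changed the depth and marker limits, the filter, the comparison nuclei or the pseudocount.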

Additional observations from a re-analysis of the deposited data

How the results depend on the processing

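Leaving out each library in turn gave a share of 1.79 to 1.96%, counts of higher and lower genes of 196 to 252 and 788 to 838 against all other nuclei, 650 to 727 and 706 to 799 against the planned excitatory nuclei and 174 to 193 and 752 to 867 in the even comparison, viral ratios of 0.986 to 1.13 against all other and 0.808 to 0.925 against excitatory nuclei, and 18 to 29 higher and 55 to 73 lower GREs. The share was 2.85% of nuclei above 500 UMIs, 0.940% at a sum of 4, 3.07% at a sum of 2, 1.38% and 2.48% in sets 1 and 2, and 0.545% and 2.12% thinned to 500 and 1000 UMIs. Against all other nuclei, 116 genes were higher in set 2 alone and 135 were higher and 1257 lower without fibroblast nuclei. There, 92 were higher and 312 lower at 1000 UMIs per gene, and 1988 and 9115 at 1 UMI. Against the planned excitatory nuclei the counts were 263 and 306 at 1000 UMIs, and 2816 and 6635 at 1 UMI. Higher genes numbered 390 in set 2 and 183 in the even comparison. With the same cap on the rule nuclei, which leaves fewer of them, 680 were higher and 2204 lower. The even comparison had 550 lower genes in set 2. Weighted by depth, the viral ratio against all other nuclei was 0.594. Higher and lower GREs numbered 13 and 102 in set 1, 45 and 23 in set 2, and 5 and 7 with 0.1 added; 31 were higher at a sum of 4, and 26 higher and 38 lower as shares of viral UMIs. The causes were not tested. Comparisons within libraries were made as a description, with no paired test, since the series has 1 sample of nuclei.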
